A study of Mus musculus with 5 samples.

Results

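Pericentral hepatocyte genes and genes that respond to beta-catenin were described in liver tumours of lnc-CTHCC knockout and wild-type mice. The set held 10 genes, chosen by symbol as pericentral or beta-catenin responsive: Glul, Oat, Rgn, Slc1a2, Rhbg, Lect2, Axin2, Nkd1, Lgr5 and Tbx3. They were chosen with earlier results of these data known. All 10 were found once each among the 22287 genes of the deposited expression table. RNA sequencing of total RNA gave 5 libraries of liver tumour tissue. The KO group was 3 libraries from C57BL/6 mice of genotype lnc-CTHCC-/-, which lack a long non-coding RNA. The WT group was 2 libraries from C57BL/6 mice of wild-type genotype. Mice of both genotypes had received DEN, a liver carcinogen, together with CCl4, a liver toxicant, for 5 months. The labels give no sex, litter or number of animals, so the spread between libraries may be technical as well as biological. Values are FPKM as the authors deposited them, that is, fragments scaled to gene length and library size.

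Hepatocytes differ along the axis of the liver lobule. Around the central vein, endothelial cells secrete Wnt ligands and R-spondin, which stabilise beta-catenin in the adjoining hepatocytes and switch on the pericentral programme of glutamine synthesis, ammonia scavenging and drug oxidation. Periportal hepatocytes, at the other end, make urea and glucose. Beta-catenin also induces its own brakes, among them Axin2 and Nkd1, and in mouse liver tumours with an activated pathway the pericentral genes are often raised.

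Hepatocyte markers were read beside the tissue label, and their FPKM summed to 109125 to 109826 in the KO libraries. In WT 1 and WT 2 they summed to 127533 and 97002. Most of each sum was Alb, at 78320 to 83027 FPKM in KO, and at 94258 and 74739 FPKM in WT. Such sums do not tell tumour from other liver tissue. The spacing of low values in short genes put the depth at about 28200000 fragments in KO 1 and KO 3 and 28300000 in KO 2, and at about 23900000 in WT 1 and 27900000 in WT 2. The lnc-CTHCC transcript was not analysed here, so the genotypes are those of the labels. Across the genes tested, WT 1 and WT 2 were the least alike pair of libraries (r = 0.965 across genes, which are not independent replicates).

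The comparison of KO with WT asks whether loss of lnc-CTHCC goes with another level of the pericentral programme. No gene of the set passed the test in either direction. Of the 10, 4 averaged 1 FPKM or more over the 5 libraries, and 0 of these 4 passed at a limma adjusted p of 0.05 over the 10132 genes tested, 0.00987% of which passed. None of the 4 had an unadjusted p under 0.05, against 3.23% of all genes tested. The other 6 (Slc1a2, Rhbg, Axin2, Nkd1, Lgr5 and Tbx3) were below this level. In a fit without the filter, which took in 16286 genes, 0 of the 10 passed and 0 had an unadjusted p under 0.05, where 0% and 4.15% of all genes did. In the authors' deposited table, which gives a false discovery rate under 0.05 for 0.162% of its genes, none of the 10 has one under 0.05 and the smallest p-value is 0.138, that of Rhbg. The median log2 difference of the 4 tested genes was 0.02, that of all genes tested 0.05. That median rested on which libraries were compared: it was -0.48 without WT 1, 0.50 without WT 2, -0.03 without KO 1, 0.31 without KO 2 and -0.32 without KO 3. With 3 libraries against 2, an exact two-sided permutation test cannot give a p below 0.1, so none was run for any gene.

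**Figure D1:**
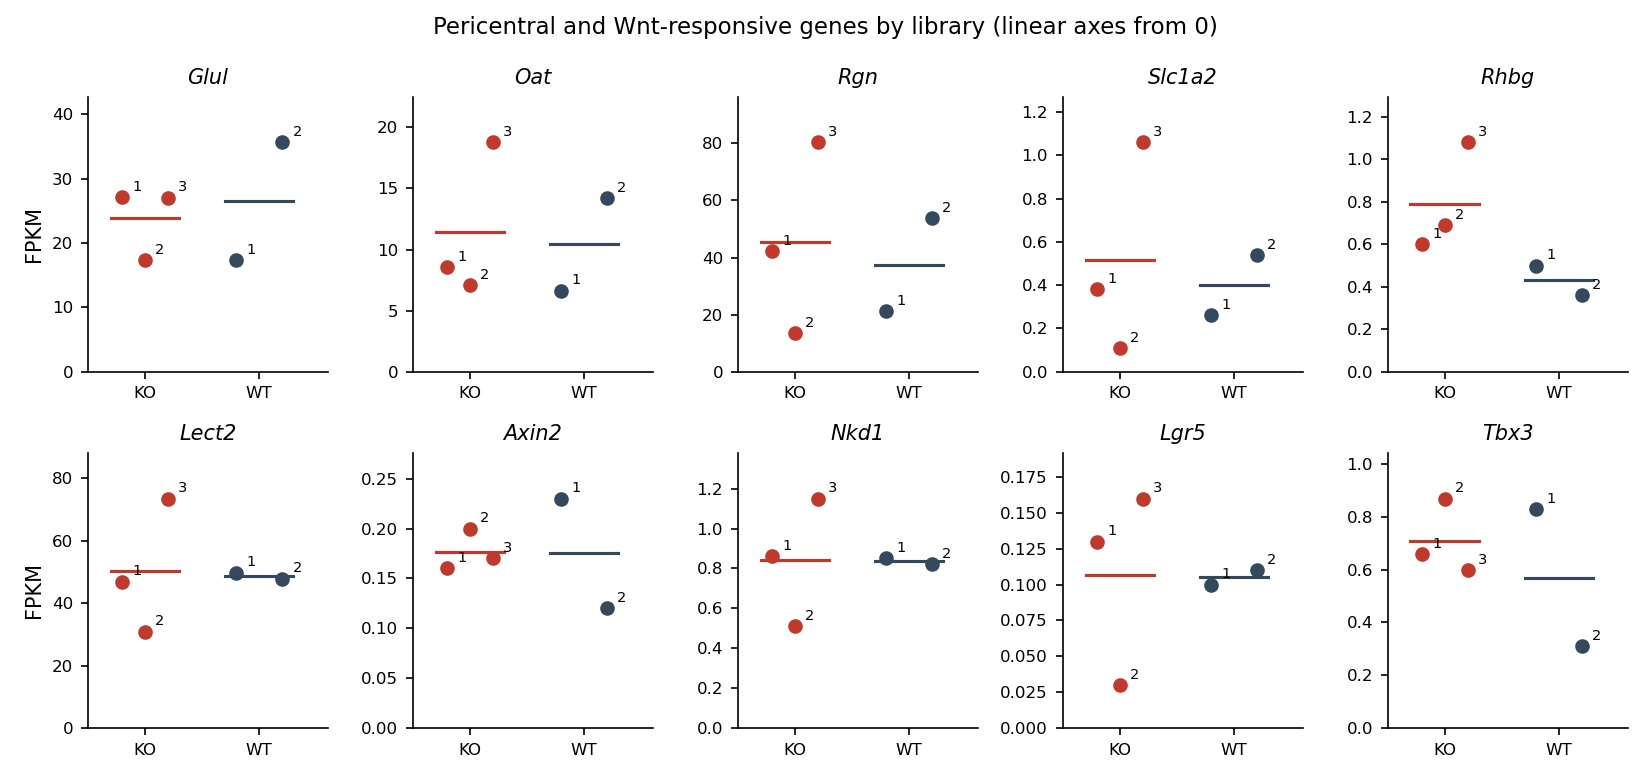
FPKM of each of the 10 genes in the 3 KO and 2 WT libraries, with library numbers beside the points and the group mean as a bar; each panel has its own linear axis from 0. KO 3 is the highest point in 7 panels and KO 2 the lowest in 6, and the genotypes are apart only in Rhbg.

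Glul, glutamine synthetase, is the classical marker of the hepatocytes next to the central vein and fixes ammonia into glutamine. It is at chromosome 1, 153899944 to 153909723, plus strand (ENSMUSG00000026473; mm10 coordinates here are those of GENCODE vM21). It stood at 27.1, 17.3 and 27.0 FPKM in KO 1, KO 2 and KO 3, against 17.3 and 35.6 FPKM in WT 1 and WT 2. KO 2 and WT 1 were low together and WT 2 was high, so the KO values lay almost wholly inside the WT range. The means were 23.8 ± 5.65 FPKM (SD, n = 3) in KO and 26.5 ± 12.9 FPKM (SD, n = 2) in WT tumours. The log2 difference was -0.09 (SE 0.31, limma adjusted p = 0.999). Its 95% interval, -0.80 to 0.62, leaves room for changes between 0.575-fold and 1.53-fold on the log2(FPKM + 1) scale.

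Oat, ornithine aminotransferase, turns ornithine into a precursor of glutamate and is pericentral in mouse liver. It lies at chromosome 7, 132557478 to 132576398, minus strand. Oat had 8.55, 7.07 and 18.8 FPKM in KO 1, KO 2 and KO 3, against 6.63 and 14.2 FPKM in WT 1 and WT 2. KO 3 and WT 2 were high and the other 3 libraries low, in both genotypes. The log2 difference was 0.10 (SE 0.41, 95% interval -0.83 to 1.02, limma adjusted p = 0.999).

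Slc1a2, the glutamate carrier also called GLT-1, brings glutamate into pericentral hepatocytes and lies at chromosome 2, 102658659 to 102790784, plus strand. It was low, at 0.38, 0.11 and 1.06 FPKM in KO 1, KO 2 and KO 3, against 0.26 and 0.54 FPKM in WT 1 and WT 2. KO 3 exceeded KO 2 by 9.64-fold, the widest ratio in the set, while both WT values fell inside the KO range. Without the filter its log2 difference was 0.07 (SE 0.26, limma adjusted p = 0.997).

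Rhbg, a membrane channel for ammonia, was the 1 gene of the 10 whose genotypes did not overlap. It had 0.60, 0.69 and 1.08 FPKM in the KO libraries, against 0.50 and 0.36 FPKM in the WT libraries. Among genes above 0 in at least 1 library, all KO values exceeded all WT values in 8.55%, and the genotypes were apart in either direction in 14.7%. The values correspond to about 33, 38 and 59 fragments in KO 1, KO 2 and KO 3 and about 23 and 19 in WT 1 and WT 2, if the annotated exons are the length the authors used. The 95% Poisson interval of KO 1, 22.7 to 46.3 fragments, overlaps that of WT 2, 11.4 to 29.7, and both cover counting error only. The log2 difference was 0.32 without the filter (SE 0.14, 95% interval -0.03 to 0.66, unadjusted p = 0.0635, limma adjusted p = 0.997), and 0.72 with a pseudocount of 0.1. Rhbg, at chromosome 3, 88242874 to 88254709, minus strand, shares exons with Gm38392 on the same strand. Gm38392 was listed at 0 FPKM in all 3 KO libraries and in WT 1, and at 0.32 FPKM in WT 2, the library with the lowest Rhbg, so the split of reads between them is uncertain.

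Rgn, regucalcin, a calcium-binding lactonase that serves vitamin C synthesis in rodents, was among the most variable genes of the set. It lies at chromosome X, 20549787 to 20562089, plus strand. Rgn had 42.3, 13.5 and 80.4 FPKM in KO 1, KO 2 and KO 3, against 21.3 and 53.8 FPKM in WT 1 and WT 2. The KO values alone spanned a 5.97-fold range, and both WT values lay inside it. The log2 difference was 0.08 (SE 0.64), and its 95% interval of -1.37 to 1.53 allows changes from 0.388-fold to 2.90-fold (limma adjusted p = 0.999).

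Lect2, a protein that hepatocytes secrete and a known beta-catenin target in liver, was the most abundant of the 10. It lies at chromosome 13, 56542464 to 56548502, minus strand. Lect2 had 46.9, 30.9 and 73.5 FPKM in KO 1, KO 2 and KO 3, against 49.8 and 47.8 FPKM in WT 1 and WT 2. The WT libraries were nearly equal, with KO 1 beside them, KO 2 below and KO 3 above. The means were 50.4 ± 21.6 FPKM (SD, n = 3) in KO and 48.8 ± 1.40 FPKM (SD, n = 2) in WT tumours, KO being the higher. Averaged as logs the order was the other way, with a log2 difference of -0.04 (SE 0.31, 95% interval -0.74 to 0.66, limma adjusted p = 0.999).

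The sequence before the gene start annotated by RefSeq was read for the 6 genes found in the RefSeq promoter table (GRCm38.p6): Glul, Axin2, Oat, Slc1a2, Lect2 and Nkd1. The letters searched were ATCAAAG and, on the other strand, CTTTGAT, the core bound by the TCF and LEF partners of beta-catenin. They occur in 3.21% of 32817 promoter windows of 250 bases. In the set they occur in 2 of the 6 windows, those of Lect2 and Slc1a2. Both windows are shown, 5′ to 3′, because they hold the match, which stands in capitals. The Lect2 match covers bases 32 to 26 before the annotated start (chr13:56548539-56548788, minus strand), and the Slc1a2 match bases 207 to 201 (chr2:102706188-102706437, plus strand). The RefSeq start used for Slc1a2 lies inside the gene as GENCODE vM21 draws it, downstream of the start given above, and the same holds for the window of Nkd1.
Lect2: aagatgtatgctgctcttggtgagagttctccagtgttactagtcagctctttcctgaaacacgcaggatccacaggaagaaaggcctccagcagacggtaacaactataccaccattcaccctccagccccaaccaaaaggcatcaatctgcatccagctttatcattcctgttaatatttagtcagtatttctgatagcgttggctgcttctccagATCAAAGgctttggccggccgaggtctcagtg
Slc1a2: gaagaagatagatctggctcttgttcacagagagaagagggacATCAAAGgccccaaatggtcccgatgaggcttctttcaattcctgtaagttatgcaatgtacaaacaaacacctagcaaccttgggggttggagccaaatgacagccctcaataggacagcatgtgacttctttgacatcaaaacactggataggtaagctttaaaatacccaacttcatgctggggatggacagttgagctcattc
A match of letters is a description of these windows and not a measured binding site.

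Axin2 is a scaffold of the complex that destroys beta-catenin and a feedback target of the pathway in most tissues. It lies at chromosome 11, 108920349 to 108950783, plus strand. Axin2 had 0.16, 0.20 and 0.17 FPKM in KO 1, KO 2 and KO 3, against 0.23 and 0.12 FPKM in WT 1 and WT 2, or about 18 to 31 fragments a library. The KO values lay between the WT values, and the means were 0.177 ± 0.0208 FPKM (SD, n = 3) in KO and 0.175 ± 0.0778 FPKM (SD, n = 2) in WT tumours. Without the filter the log2 difference was 0.00 (SE 0.05, limma adjusted p = 0.998), on a scale that compresses genes this low.

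Nkd1, which binds Dishevelled and restrains Wnt signalling, lies at chromosome 8, 88521354 to 88594884, plus strand. It had 0.86, 0.51 and 1.15 FPKM in KO 1, KO 2 and KO 3, against 0.85 and 0.82 FPKM in WT 1 and WT 2. Its layout was that of Lect2, with the WT libraries and KO 1 together, KO 2 below and KO 3 above. The log2 difference was -0.01 without the filter (SE 0.17, limma adjusted p = 0.998).

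Lgr5, an R-spondin receptor that marks pericentral hepatocytes, was the lowest of the 10. It lies at chromosome 10, 115450311 to 115587780, minus strand. It had 0.13, 0.03 and 0.16 FPKM in KO 1, KO 2 and KO 3, against 0.10 and 0.11 FPKM in WT 1 and WT 2. KO 2 held about 9 fragments (95% Poisson interval 4.1 to 17.1) and KO 3 about 46 (33.7 to 61.4), if the authors used the whole annotated exon length, so the gap between these KO libraries is beyond counting error. The means were 0.107 ± 0.0681 FPKM (SD, n = 3) in KO and 0.105 ± 0.00707 FPKM (SD, n = 2) in WT tumours.

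Tbx3, a T-box repressor that is a beta-catenin target in liver tumours, went another way across the libraries. It lies at chromosome 5, 119670669 to 119684724, plus strand. Tbx3 had 0.66, 0.87 and 0.60 FPKM in KO 1, KO 2 and KO 3, against 0.83 and 0.31 FPKM in WT 1 and WT 2. KO 2 and WT 1 were high and WT 2 was low, as with Axin2 and opposite to Glul, Oat, Rgn and Slc1a2. The log2 difference was 0.14 without the filter (SE 0.17, limma adjusted p = 0.997), and turned to -0.10 without WT 2, which was the lowest library.

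**Figure D2:**
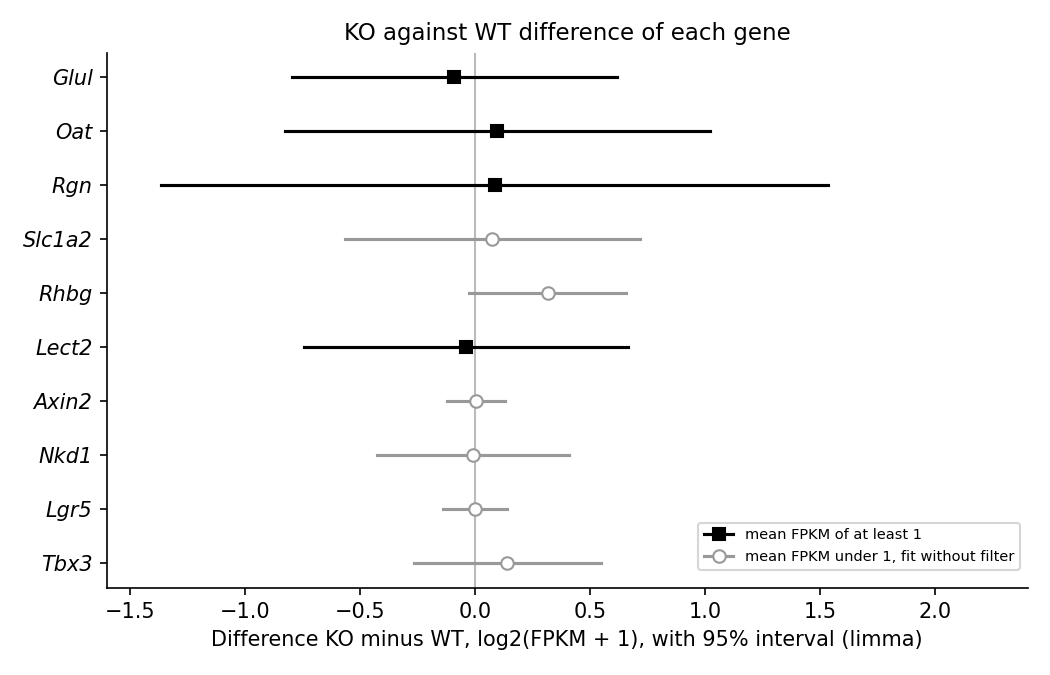
Log2 difference of KO minus WT for each gene on the log2(FPKM + 1) scale, with the 95% interval from limma; filled squares are genes averaging 1 FPKM or more and open circles are lower genes, taken from the fit without a filter. Every interval includes 0, that of Rgn being the widest (-1.37 to 1.53), and the narrow intervals of Axin2 and Lgr5 reflect the pseudocount.

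In all 10 genes the range of the KO libraries was wider than the difference between the KO and WT means, a share near the 82.3% of all genes tested. The gap between the WT libraries was wider than that difference in 9 of the 10, Rhbg being the exception, against 73.6% of genes tested. The KO range on the log2 scale exceeded that of 87.6% of tested genes for Glul, 98.2% for Lect2, 98.4% for Oat and 99.9% for Rgn. The gap between the WT libraries was likewise wider than in 95.1% of tested genes for Oat, 95.2% for Glul and 98.0% for Rgn, but only wider than in 10.1% for Lect2.

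Most of that range separated KO 3 from KO 2, a pattern noticed after the values were seen and given with no test. KO 3 was above KO 2 in 8 of the 10 genes, the exceptions being Axin2 and Tbx3, against 45.6% of the genes tested and 55.0% of genes with a mean FPKM from 0.1 to 1. KO 3 was at least 2-fold above KO 2 in 6 of the 10, namely Oat, Rgn, Slc1a2, Lect2, Nkd1 and Lgr5. This was so in 2.41% of the genes tested and in 17.6% of the low ones. KO 3 was the highest of all 5 libraries in 7 of the 10, against 8.81% of genes tested and 13.0% of the low ones. KO 2 was the lowest in 6 of the 10, against 11.9% and 25.9%. Rgn and Slc1a2 shared the full order KO 3, WT 2, KO 1, WT 1 and KO 2 from high to low. That order was found in 0.582% of the genes tested and in 0.676% of genes averaging 0.1 FPKM or more. The 10 genes were measured in the same libraries and are not independent of each other.

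Other pericentral genes were read in the same way, from a list of 26 of which 25 were tested. None passed in KO against WT (0 of 25), with 13 higher, 12 lower and a median log2 difference of 0.03. The share higher in KO over all genes tested was 61.4%. KO 3 was above KO 2 in 20 of the 25, against 45.6% of genes tested. KO 3 was the highest library in 7 of the 25 and KO 2 the lowest in 8, against 8.81% and 11.9% of genes tested. The median log2 gap of KO 3 over KO 2 was 0.43, against 1.26 for the 4 tested genes of the set. Cyp2e1, an ethanol- and toxicant-oxidising P450 that bioactivates CCl4, had 159, 58.3 and 321 FPKM in KO 1, KO 2 and KO 3, against 84.4 and 192 FPKM in WT 1 and WT 2. Its libraries stood in the same order as those of Rgn and Slc1a2, and it was the 1 tested gene of the 25 that did so. Genes of this list chosen after their values were seen include Cyp7a1, the rate-limiting enzyme of bile acid synthesis, with 3.22, 0.61 and 3.54 FPKM in KO 1, KO 2 and KO 3, against 0.80 and 4.27 FPKM in WT 1 and WT 2. Slco1b2, a hepatocyte uptake carrier, had 15.2, 8.70 and 30.7 FPKM in the KO libraries, against 11.4 and 34.3 FPKM in the WT libraries. Cyp2c50 and Cyp2c54, P450s whose reads may be shared with close relatives, were 12.7-fold and 13.4-fold higher in KO 3 than in KO 2.

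Not every pericentral gene followed that order. Cyp1a2, a P450 under the aryl hydrocarbon receptor, had 25.5, 43.9 and 22.7 FPKM in KO 1, KO 2 and KO 3, against 22.8 and 36.3 FPKM in WT 1 and WT 2, with KO 2 the highest. Cyp2a5, a coumarin-oxidising P450, and Gstm1, a glutathione transferase, both chosen after their values were seen, were also highest in KO 2, at 1160 and 3746 FPKM, and lowest in KO 3, at 321 and 1580 FPKM. Cyp3a11, the main drug-oxidising Cyp3a enzyme of mouse liver, had 159, 171 and 320 FPKM in the KO libraries, against 450 and 560 FPKM in the WT libraries. It was the tested gene of the list with no overlap, where all KO values lie below all WT values in 5.29% of genes tested, and it did not pass (log2 difference -1.28, SE 0.29, limma adjusted p = 0.822).

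**Figure D3:**
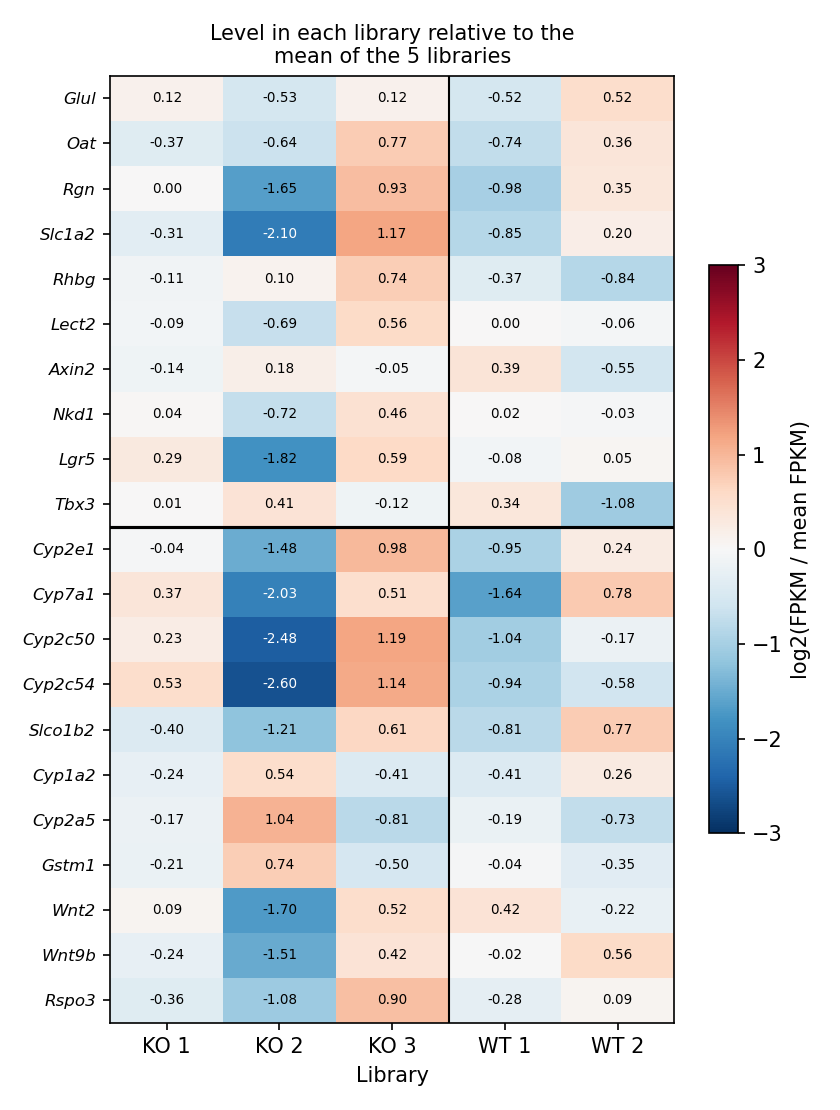
Level of each gene in each library as log2 of FPKM over the mean FPKM of the 5 libraries, KO libraries left of WT; the set stands above the line, and other pericentral genes and Wnt ligands, some chosen after their values were seen, below it. KO 2 is blue and KO 3 red for most rows, from Rgn (-1.65 and 0.93) to Cyp2c54 (-2.60 and 1.14), while Axin2, Tbx3, Cyp1a2, Cyp2a5 and Gstm1 are higher in KO 2 than in KO 3.

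Of 20 periportal genes, all tested, none passed, 3 had a higher and 17 a lower mean log2 value in KO, and the median log2 difference was -0.31. Of all genes tested, 61.4% were higher in KO. The median log2 gap of WT 2 over WT 1 was 0.52 in this list and 0.23 over all genes tested. The part of WT 2 in the lower KO values was not tested. Of the 20, 4 had an unadjusted p under 0.05, against 3.23% of genes tested, and the same 4 had every KO library below every WT library, against 5.29%: Hal, Sds, Etnppl and Aldh1b1. Hal, the first enzyme of histidine breakdown, had 14.1, 18.1 and 28.3 FPKM in KO, against 46.0 and 58.6 FPKM in WT (log2 difference -1.38, SE 0.27, limma adjusted p = 0.643). Sds, serine dehydratase, had a log2 difference of -1.41 (limma adjusted p = 0.822) and Aldh1b1, an aldehyde dehydrogenase, of -0.72 (limma adjusted p = 0.999). Etnppl, a phospholyase, had 1.33, 1.32 and 1.5 FPKM in KO, against 3.34 and 19.9 FPKM in WT (limma adjusted p = 0.999). Every KO library lay above every WT library in 2 of the 20, against 9.78% of genes tested. The difference between the periportal and pericentral lists was not tested. KO 3 was above KO 2 in 13 of the 20 and the highest library in 1, against 45.6% and 8.81% of genes tested. Gls2, the liver glutaminase, which releases the ammonia that Glul recaptures downstream, had 77.6, 122 and 115 FPKM in KO 1, KO 2 and KO 3, against 107 and 107 FPKM in WT 1 and WT 2. Cyp2f2, a periportal P450, had 40.1, 71.3 and 48.8 FPKM in the KO libraries, against 38.1 and 187 FPKM in the WT libraries.

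The ligands that feed the pathway were low in tumour tissue, and 0 of 11 reached a mean of 1 FPKM. Wnt2 had 0.31, 0.09 and 0.42 FPKM in KO 1, KO 2 and KO 3, against 0.39 and 0.25 FPKM in WT 1 and WT 2. Wnt9b had 0.12, 0.05 and 0.19 FPKM in KO, against 0.14 and 0.21 FPKM in WT. Rspo3, the R-spondin of central vein endothelium, had 0.33, 0.20 and 0.79 FPKM in KO, against 0.35 and 0.45 FPKM in WT. All 3 were lowest in KO 2, where their values stand for about 6, 6 and 18 fragments. Of the 9 ligands above 0 in any library, 5 were lowest in KO 2 and 4 in WT 1, where 25.9% and 35.6% of genes with a mean FPKM from 0.1 to 1 were. Rspo2 and Rspo4 were listed at 0 in every library.

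Markers of the cells that could carry these transcripts were summed per library. Endothelial markers, all 10 of which were tested, summed to 117, 77.6 and 88.7 FPKM in KO 1, KO 2 and KO 3, against 80.6 and 71.1 FPKM in WT 1 and WT 2. KO 2 was the lowest KO library by this sum, and WT 2 was lower still. Of the 10 markers, 6 were higher in KO 3 than in KO 2, where 45.6% of genes tested were. Kupffer cell and macrophage markers, 7 of 8 tested, summed to 94.8, 47.0 and 117 FPKM in KO, against 63.9 and 64.7 FPKM in WT, with KO 3 highest and KO 2 lowest, as in the set. All 7 tested were higher in KO 3 than in KO 2, where 45.6% of genes tested were. Of these 7, 4 were highest in KO 3 and 5 lowest in KO 2, against 8.81% and 11.9% of genes tested. Their median log2 gap of KO 3 over KO 2 was 0.96, against 0.43 for the other pericentral genes and 1.26 for the tested genes of the set. Stellate cell and fibroblast markers summed to 140, 95.5 and 102 FPKM in KO and to 81.2 and 108 FPKM in WT. Cholangiocyte markers, nearly all of it Spp1, with Krt19 at 1.81 FPKM or less, summed to 334, 154 and 348 FPKM in KO and to 150 and 423 FPKM in WT. T, NK and B cell markers summed to 17.4, 18.0 and 6.80 FPKM in KO and to 22.4 and 70.1 FPKM in WT. Most of this was Jchain, a plasma cell gene, at 65.0 FPKM in WT 2, while Cd3e of T cells was higher in WT 1 (0.57 FPKM) than in WT 2 (0.12 FPKM). No marker was listed at 0 in all libraries, and none passed in KO against WT. The part of the macrophage and cholangiocyte sums in the order of the libraries was not tested, and in bulk tissue fewer cells of a type and less RNA per cell cannot be told apart.

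Among Wnt receptors, 0 of 9 tested passed, with 8 higher and 1 lower in KO and a median log2 difference of 0.12, where 61.4% of all genes tested were higher. Ryk, a Wnt co-receptor, had 17.7, 14.9 and 13.6 FPKM in KO, against 10.8 and 11.1 FPKM in WT, and did not pass (log2 difference 0.45, SE 0.18, limma adjusted p = 0.999). Lgr4, the R-spondin receptor that hepatocytes carry at a higher level than Lgr5, had 6.03, 6.62 and 7.65 FPKM in KO, against 5.72 and 10.6 FPKM in WT. Lrp6, the Wnt co-receptor, had 6.68, 6.00 and 7.50 FPKM in KO, against 4.40 and 7.12 FPKM in WT. In Lgr4 all KO values lay inside the WT range, and in Lrp6 only KO 3 lay outside it.

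In the core of the pathway 0 of 19 genes tested passed, with 15 higher and 4 lower in KO (61.4% of all genes tested were higher) and a median log2 difference of 0.07. Ctnnb1, beta-catenin itself, had 79.6, 70.7 and 68.5 FPKM in KO 1, KO 2 and KO 3, against 51.0 and 72.9 FPKM in WT 1 and WT 2 (log2 difference 0.25, SE 0.19, limma adjusted p = 0.999). WT 1 was the lowest library, as it was in 46.7% of all genes tested. Apc, which holds the destruction complex together, had 4.44, 2.28 and 2.90 FPKM in KO, against 1.77 and 3.76 FPKM in WT. Tcf7l2, the main TCF factor of hepatocytes, had 1.57, 1.74 and 1.59 FPKM in KO, against 1.17 and 2.33 FPKM in WT. Ctnnbip1, which blocks the contact of beta-catenin with TCF, was lower in every KO library, at 1.55, 0.95 and 1.82 FPKM, against 2.37 and 3.67 FPKM in WT, and did not pass (log2 difference -0.72, SE 0.23, limma adjusted p = 0.999). It was the 1 gene of the 19 with every KO library below every WT library, against 5.29% of genes tested. Every KO library lay above every WT library in 2 of the 19, Dvl2 and Tcf7l1, against 9.78%.

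Other targets and feedback genes were tested in 10 of 20 cases and 0 passed, with 8 higher and 2 lower and a median log2 difference of 0.23. Of all genes tested, 61.4% were higher in KO. Cldn2, a tight junction claudin, had 27.8, 31.5 and 34.4 FPKM in KO, against 20.9 and 16.3 FPKM in WT. Its log2 difference was 0.72 (SE 0.19, unadjusted p = 0.00403, limma adjusted p = 0.972). Every KO library lay above every WT library in 3 of the 10, Cldn2, Fzd7 and Znrf3, against 9.78% of genes tested. Myc, the growth regulator, had 13.5, 10.7 and 5.87 FPKM in KO, against 3.74 and 6.45 FPKM in WT, so the genotypes overlapped (log2 difference 0.82, SE 0.33, unadjusted p = 0.0344, limma adjusted p = 0.999). Rnf43 and Znrf3, ubiquitin ligases that remove Frizzled receptors, averaged 2.58 and 1.21 FPKM in KO and 2.42 and 0.915 FPKM in WT. Lef1, a TCF family factor raised in many Wnt-driven tumours, was at 0.02, 0.04 and 0.03 FPKM in KO, against 0.10 and 0.05 FPKM in WT. Of the secreted inhibitors, 3 of 10 were tested (Kremen1, Frzb and Dkk3), all with a higher mean log2 value in KO, and 0 passed.

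Around Glul, Oat and Slc1a2 in metabolism, 0 of 19 tested genes of glutamine, glutamate and ornithine handling passed. Of these, 8 were higher and 11 lower in KO, where 61.4% of all genes tested were higher. Their median log2 difference was -0.06. KO 3 was above KO 2 in 8 of these 19, against 45.6% of genes tested. Slc38a3, the glutamine carrier SNAT3, had 320, 448 and 408 FPKM in KO 1, KO 2 and KO 3, against 425 and 524 FPKM in WT 1 and WT 2. Glud1, glutamate dehydrogenase, had 399, 402 and 347 FPKM in KO, against 399 and 300.2 FPKM in WT. KO 2 was not low in either gene.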

How the data were processed

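Gene FPKM of each library, rounded to 2 decimals, were used as the authors deposited them. HISAT2, StringTie, bcl2fastq 2.0, limma and DESeq2 and the build mm10 appear in the submitters' processing notes, with no role or order. Annotation and strand setting are not given there, so reads of antisense partners (of Glul, Axin2, Tbx3 and Slc1a2) may be included. The partner of Glul, Teddm2, was listed at 0 FPKM in every library. Glul also shares exons with the microRNA gene Mir8114 on its own strand. The authors' mean FPKM, log2 fold change, false discovery rate and p-value of each gene stand in the same table, per the file headers, with no tool named.

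Groups came from sample titles. KO was compared with WT on log2(FPKM + 1) by limma 3.58.1 in R 4.3.3 (empirical Bayes with trend, two-sided, 3 residual degrees of freedom, Benjamini-Hochberg over all genes tested, threshold 0.05), for genes averaging 1 FPKM or more; the pseudocount of 1 understates changes of low genes. The code was tested on simulated data. Lower genes were read from a fit of all genes above 0 in at least 1 library. Low values times exon length (GENCODE vM21, short genes with 1 transcript) fell on whole multiples, within a tolerance of 0.2 of a fragment, for 85.0% to 90.9% of short genes. The spacing of each library was picked to align these same values best, so this share does not test it. That spacing gave the depth and the fragment estimates. It sets aside annotation differences, and FPKM were tested, not counts. Genes named beyond the 10 were up to 4 per list by unadjusted p, plus Ctnnb1, Tcf7l2, Apc, Lgr4, Lrp6, Rnf43, Znrf3, Lef1, Wnt2, Wnt9b, Rspo3, Cyp2e1, Cyp1a2, Gls2, Slc38a3, Glud1 and Cyp2f2; not all are described. Cyp7a1, Slco1b2, Cyp2c50, Cyp2c54, Cyp2a5, Gstm1, Gm38392 and single cell type markers fall outside this rule and were chosen after their values were seen. Also outside it are Teddm2 and Mir8114, named for exons shared with Glul, and Rspo2, Rspo4, Tat and Pck1, named for the results given with them. The 10 genes and all lists were chosen with earlier results of these data known. Alternatives were other pseudocounts, filters, scalings, variance models, the replicate block and leaving out each library. Figures were drawn with matplotlib 3.10.9.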

Additional observations from a re-analysis of the deposited data

How the results depend on the processing

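The count of 0 genes of the set past the threshold held in all 15 alternatives, and of 138 values of single genes under them 26 had the opposite sign to the reported value. None of the 138 passed (smallest limma adjusted p = 0.497). The sign turned without 1 or more libraries for every gene but Rhbg. For Rhbg it could not turn, since every KO value lay above every WT value. With 1 library left out, the log2 difference ran from -0.590 to 0.409 for Glul, -0.403 to 0.593 for Oat, -0.563 to 0.763 for Rgn, -0.171 to 0.275 for Slc1a2, 0.203 to 0.393 for Rhbg, -0.351 to 0.263 for Lect2, -0.064 to 0.071 for Axin2, -0.131 to 0.124 for Nkd1, -0.035 to 0.051 for Lgr5 and -0.101 to 0.381 for Tbx3. Where a genotype is left with 1 WT library, it is assumed to vary like the others. The sign also turned for Lgr5 with a pseudocount of 0.1 (-0.049), for Axin2 (-0.012) and Lgr5 (-0.006) with median-ratio rescaling, and for Nkd1 with rescaling to a common sum (0.001). The reported differences of these genes lay near 0 beside their SE. They were 0.000 (SE 0.056) for Lgr5, 0.003 (SE 0.052) for Axin2 and -0.011 (SE 0.169) for Nkd1. The cause of the turns was not tested.

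The replicate number as a block turned Oat (-0.295), Rgn (-0.483), Slc1a2 (-0.171) and Lgr5 (-0.035). In it KO 3 has no partner and drops out, so these equal the values without KO 3. Whether the numbers mark a pairing could not be told. Deviations of same-numbered libraries from their group means correlated at 0.088 for number 1 and -0.241 for number 2. With 2 WT libraries the deviations of WT 1 and WT 2 are mirror images, so these correlations can neither show nor exclude a pairing. Over all genes the block called 62, against 1 without it, and 6 genes of the lists (Hal, Sds, Cyp3a11, Etnppl, Tat and Pck1). The block leaves fewer residual degrees of freedom than the 3 of the main fit. Its calls therefore lean more on the variance that limma shares across genes, and the 2 counts are not on a par. Over all genes, 0 were called after quantile normalization, median-ratio rescaling or rescaling to a common sum, with a minimum mean of 5 FPKM or no filter, and with a pseudocount of 5; 3 with robust empirical Bayes, and 0 to 17 with 1 library left out. Of the other pathway lists, 0 to 1 genes were then called, Etnppl without WT 1. Depth limits Lgr5, Axin2, Rhbg and the Wnt ligands, which rest on few fragments.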
